A study of Mus musculus with 6 samples.

Results

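The genes of the mitochondrial ribosomal proteins, mostly named Mrpl for the large and Mrps for the small subunit, were examined in H3K27ac ChIP-seq of mouse quadriceps. Members were the listed peaks whose nearest gene, as the tables name it, begins with Mrpl or Mrps followed by a digit. This rule took 118 of 46988 peaks in control muscle and 107 of 40721 peaks in muscle of detrained mice, named for 65 and 61 genes. Of the 78 protein-coding genes with such names in the RefSeq annotation, 59 named a peak in both lists, 6 in the control list alone, 2 in the detrained list alone and 11 in neither. Mrps36 meets this rule and is counted among the members. It is not a stable subunit of the ribosome and is left out of the values by subunit. The animals were male C57BL/6J mice, wild type, and from 8 weeks of age spent 4 weeks in cages that either held a wheel for voluntary running or did not. The control group had no wheel, and the detrained group ran and was then rested for 72 h before harvest, so detrained muscle is muscle after exercise and rest and not trained muscle. Each group held 2 H3K27ac libraries, each from a single quadriceps of 1 animal, and 1 input library. The labels give the strain as C57BL/6 for the H3K27ac libraries, and as C57BL/7 and C57BL/8 for the control and the detrained input.

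The mitochondrial ribosome translates the few proteins that the mitochondrial genome encodes, which are core subunits of the respiratory complexes. Its RNAs come from mitochondrial DNA, whereas its proteins are encoded in the nucleus, made in the cytosol and imported, so their supply rests on nuclear promoters. Some of these proteins have a counterpart in the bacterial ribosome and others are particular to mitochondria. Nuclear genes for mitochondrial proteins are known for promoters read by the ETS factor GABPA, also called NRF2, and by NRF1, and skeletal muscle is known to raise its mitochondrial content with endurance exercise. H3K27ac, acetylation of lysine 27 on histone H3, marks active promoters and enhancers.

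Promoter windows from RefSeq (GRCm38.p6), running from 250 bases before to 50 bases after the start of transcription, were matched for 69 of the 78 genes. The motifs searched on both strands were CCGGAAG (GABPA/ETS), GCATGCGC (NRF1), AAGATGGCG (YY1), GGGCGG (SP), AAGGTCA (ERR), CACGTG (E-box, the same on both strands) and the TATA box, searched as TATAAA. None of these contains another. The 200 bases before the start are shown for 6 genes on which the results below turn, with every match to a motif in capitals. They are Mrpl27, densest of the shared start-site peaks that carry the gene's own name, Mrps2, among the least dense of these, Mrps11, which shares its peak with another member, Mrpl43 and Mrpl28, which had 2 of the 3 largest increases, and Mrpl20, whose start lay in no peak.
Mrpl27 (chr11:94653591-94653790, plus strand): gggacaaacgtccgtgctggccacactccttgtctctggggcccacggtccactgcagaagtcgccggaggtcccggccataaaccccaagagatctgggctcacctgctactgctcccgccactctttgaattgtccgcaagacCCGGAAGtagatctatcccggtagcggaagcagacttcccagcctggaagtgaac
Mrps2 (chr2:28467866-28468065, plus strand): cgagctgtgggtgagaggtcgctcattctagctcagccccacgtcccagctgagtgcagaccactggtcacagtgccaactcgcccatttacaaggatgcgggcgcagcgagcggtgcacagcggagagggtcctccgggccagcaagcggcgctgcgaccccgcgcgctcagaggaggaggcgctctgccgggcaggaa
Mrps11 (chr7:78782931-78783130, plus strand): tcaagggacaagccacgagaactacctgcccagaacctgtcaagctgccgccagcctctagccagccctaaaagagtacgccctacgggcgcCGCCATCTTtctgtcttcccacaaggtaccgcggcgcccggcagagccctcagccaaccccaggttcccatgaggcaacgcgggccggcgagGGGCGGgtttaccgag
Mrpl43 (chr19:45006443-45006642, minus strand): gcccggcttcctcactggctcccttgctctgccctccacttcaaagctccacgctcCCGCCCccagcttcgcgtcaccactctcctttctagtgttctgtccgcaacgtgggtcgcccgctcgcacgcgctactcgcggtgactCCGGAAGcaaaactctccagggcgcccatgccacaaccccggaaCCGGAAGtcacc
Mrpl28 (chr17:26123303-26123502, plus strand): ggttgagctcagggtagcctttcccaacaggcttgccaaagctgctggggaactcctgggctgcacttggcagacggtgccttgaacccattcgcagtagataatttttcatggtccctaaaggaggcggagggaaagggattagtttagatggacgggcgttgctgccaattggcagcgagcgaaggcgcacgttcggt
Mrpl20 (chr4:155802678-155802877, plus strand): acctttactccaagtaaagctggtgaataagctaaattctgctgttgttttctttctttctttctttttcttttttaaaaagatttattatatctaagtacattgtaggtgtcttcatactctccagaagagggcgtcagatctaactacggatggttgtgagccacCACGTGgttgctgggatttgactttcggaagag
Mrpl27 held 1 ETS motif that began 55 bases before the start. Mrpl43 held 2 ETS motifs, 56 and 12 bases before the start, and an SP motif on the opposite strand. In Mrps11 a YY1 motif was read on the opposite strand, 108 bases before the start, and Mrpl20 held an E-box 33 bases before the start. None of the 7 motifs was found in these 200 bases of Mrps2 and Mrpl28, which says only that these letters are absent there.

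Over the whole window, the ETS motif was found in 25 of 69 promoters of mitochondrial ribosomal proteins (36.2%). The share was 9.12% of all 27025 promoters and 18.4% of the 9776 promoters whose start lay in a peak of both lists. The NRF1 motif was held by 8 promoters (11.6%, against 2.80% of all and 5.65% of those with peaks), and the YY1 motif also by 8 (11.6%, against 1.49% and 3.30%), of which 2 held it before the start (2.90%, against 0.607% and 1.29%). At least 1 of these 3 motifs was found in 35 of the 69 (50.7%, against 12.5% and 25.3%). The SP motif was found in 34 (49.3%), which lay between the share in all promoters (35.9%) and in those with peaks (64.0%). The ERR motif was found in 4 (5.80%, against 4.66% and 3.22%), the E-box in 5 (7.25%, against 7.24% and 10.2%) and the TATA box in 4 (5.80%, against 14.2% and 7.20%). The median GC content was 58.3% over the 69 promoters, 52.7% over all and 61.3% over those with peaks. Where a density in all 4 libraries could be had, its median was 78.4 tags per kb per 10000000 tags over 22 promoters with the ETS motif and 70.6 over 40 without it, and the ranges, 32.3 to 149 and 43.3 to 106, overlapped. A match of letters is a description and not evidence of binding.

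**Figure D1:**
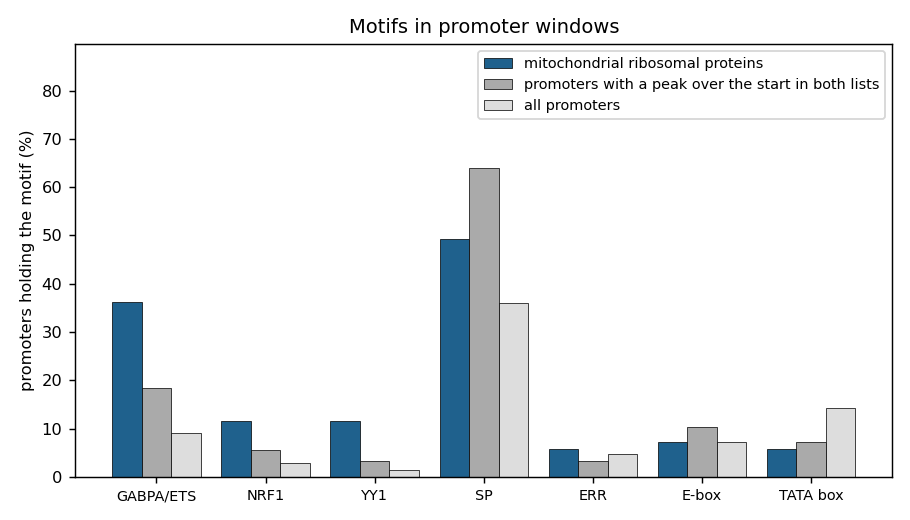
Share of promoter windows that hold each motif (y axis, percent of promoters) for 69 mitochondrial ribosomal protein genes (blue), 9776 promoters with a peak over the start in both lists (mid grey) and all 27025 promoters (light grey). The ETS motif stands at 36.2% against 18.4% and 9.12%, whereas the SP motif stands at 49.3% against 64.0% and 35.9%.

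Total tags were 20805019 to 22400894 in the 4 H3K27ac libraries, and 10812470 and 21298438 in the control and detrained input, so the control input was the shallowest library. Each table was normalized separately and a peak absent from a list has no value in that group, hence no test between groups was made. An exact permutation test of 2 against 2 libraries could not go below a two-sided p of 0.333. Among 5 markers of muscle fibres, Acta1, Ckm and Mylpf had a peak at the start in both lists, Myh4 in the detrained list only and Tnnt3 in neither. The heart markers Myh6 and Nppa had no peak, all 3 endothelial and 2 fibroblast markers had peaks at the start in both lists, and of 3 leukocyte markers Ptprc had one in the detrained list only and Adgre1 and Cd68 in neither. The liver marker Apoa2 also had a peak at the start in the detrained list only, and Alb had none. Geometric mean densities of the 2 libraries at these starts, in tags per kb per 10000000, went from control to detrained muscle from 40.5 to 29.7 at endothelial Pecam1, 33.6 to 29.4 at Cdh5 and 36.4 to 27.7 at Kdr, and from 40.0 to 47.8 at fibroblast Pdgfra and 35.2 to 38.0 at Col1a1. At the fibre markers they were 85.4 and 72.7 for Acta1, 93.1 and 105 for Ckm and 94.5 and 83.2 for Mylpf. The part of these differences in the results was not tested. The muscle is a mixture of cell types by these marks, and fewer nuclei of a type cannot be told apart from less acetylation per nucleus in any value below.

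Nearly every promoter of this gene family was acetylated. When any listed peak was counted, whatever its name, the start of 75 of the 78 genes lay in a control peak (96.2%) and that of 73 in a detrained peak (93.6%), as against 52.7% and 52.6% of all 21000 protein-coding genes. Both lists covered 71 starts. Mrpl22, Mrpl35, Mrps15 and Mrps22 were covered in the control list only, Mrpl21 and Mrps10 in the detrained list only, and Mrpl20 in neither. At Mrpl22 and Mrps22, however, a detrained peak overlapped the control peak without reaching the start. Its densities at Mrpl22 were 44.2 and 45.5, against 39.7 and 38.2 in control. Those at Mrps22 were 35.9 and 28.7, against 40.6 and 30.8 in control. The peak at Mrpl20, a large subunit protein with a bacterial counterpart, began downstream of the start, at chr4:155803333-155804343 in control and chr4:155803175-155804622 in detrained muscle, over an exon of the gene.

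Many of these starts were shared with a neighbour. Of the 78 genes, 28 (35.9%) had the start of a gene on the other strand within 1000 bp, against 9.85% of all protein-coding genes and 16.7% of those with a start in peaks of both lists. The pair stood head to head for 27 of them, 32 to 935 bp apart with a median of 131 bp. Mrps11 and Mrpl46, one protein of each subunit, start 42 bp from each other at chr7:78783131 and chr7:78783089, so that 1 peak served both. The partner of Mrps12 is Sars2, the mitochondrial seryl-tRNA synthetase (147 bp), that of Mrpl43 is Twnk, the mitochondrial DNA helicase (116 bp), and that of Mrpl47 is Ndufb5, a subunit of respiratory complex I (308 bp). As the tables give each peak 1 name, 14 starts lay in peaks named for another gene in both lists, among them Mrps7 (named Gga3), Mrpl2 (Klc4), Mrps18c (Helq), Mrps18b (Mir1894) and Mrpl40 (Hira). A value at such a peak belongs to both promoters and cannot be assigned to either gene. The same holds where a peak with the member's own name also covers the start of a neighbour.

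A peak named for the gene lay over the start of 58 genes in control and 53 genes in detrained muscle. These start-site peaks made up 50.8% and 51.4% of member peaks, compared with 22.9% and 26.4% of all peaks. They were short, with a median of 1478 bp in control (753 to 8400 bp) and 1396 bp in detrained muscle (500 to 6599 bp), whereas all start-site peaks had medians of 2127 and 2119 bp. Their median enrichment over input was 7.09-fold and 6.39-fold (all start-site peaks, 7.51-fold and 6.94-fold). Each library gave an estimated 67.6 to 1660 tags per peak in control and 52.4 to 1277 in detrained muscle.

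Density, the tags of a library per kb of called peak per 10000000 total tags, was above that of the typical marked gene. Taking the densest start-site peak of each gene, the median was 71.0 in control library C2 and 70.5 in C3, against 75.4 in detrained library Ex1 and 70.7 in Ex2. Over all genes with a start-site peak the medians were 60.7, 61.2, 61.8 and 57.4. Ranked among these genes, the typical mitochondrial ribosomal protein stood at percentile 62.4 in control (38 of 58 above the middle) and 65.9 in detrained muscle (38 of 53). In tags per peak, with no division by length, it stood at 37.9 and 38.3. Hence the mark at these promoters was dense but narrow, and its rank depends on the scale.

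Shared peaks were those of both lists that overlapped one to one over at least 50% of each. Of these, 79 were named for the same member gene in both lists, at 55 genes, and 51 of them were start-site peaks, at 49 genes. Among these 51 the highest was Mrpl27, a large subunit protein with a bacterial counterpart, at 100.2 and 106 in the controls and 128 and 108 in the detrained libraries. This peak also covers the start of Eme1, 48 bp away on the other strand, so its level cannot be assigned to Mrpl27 alone. Mrpl48, particular to mitochondria, reached 101, 119, 107 and 97.5, and Mrps28, of the small subunit, 104, 118, 90.6 and 90.9. The order of these 3 is not resolved by the spread between libraries, as the ranges of Mrpl27 and Mrpl48 overlap.

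The lowest of these 51 start-site peaks were those of Mrpl19, with 40.2, 34.4, 41.0 and 39.0 in C2, C3, Ex1 and Ex2, Mrpl38, with 33.3, 32.7, 46.7 and 45.1, and Mrps2, with 44.1, 50.5, 44.0 and 36.0. These 3 also overlap with one another, and none reached the lowest value of the 3 highest genes. Mrpl48 was the only member with 3 shared start-site peaks, each over a separate annotated start, and the peak farthest upstream (chr7:100606609-100609153 in control) also covers the start of Rab6a, a gene for a Golgi trafficking protein.

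**Figure D2:**
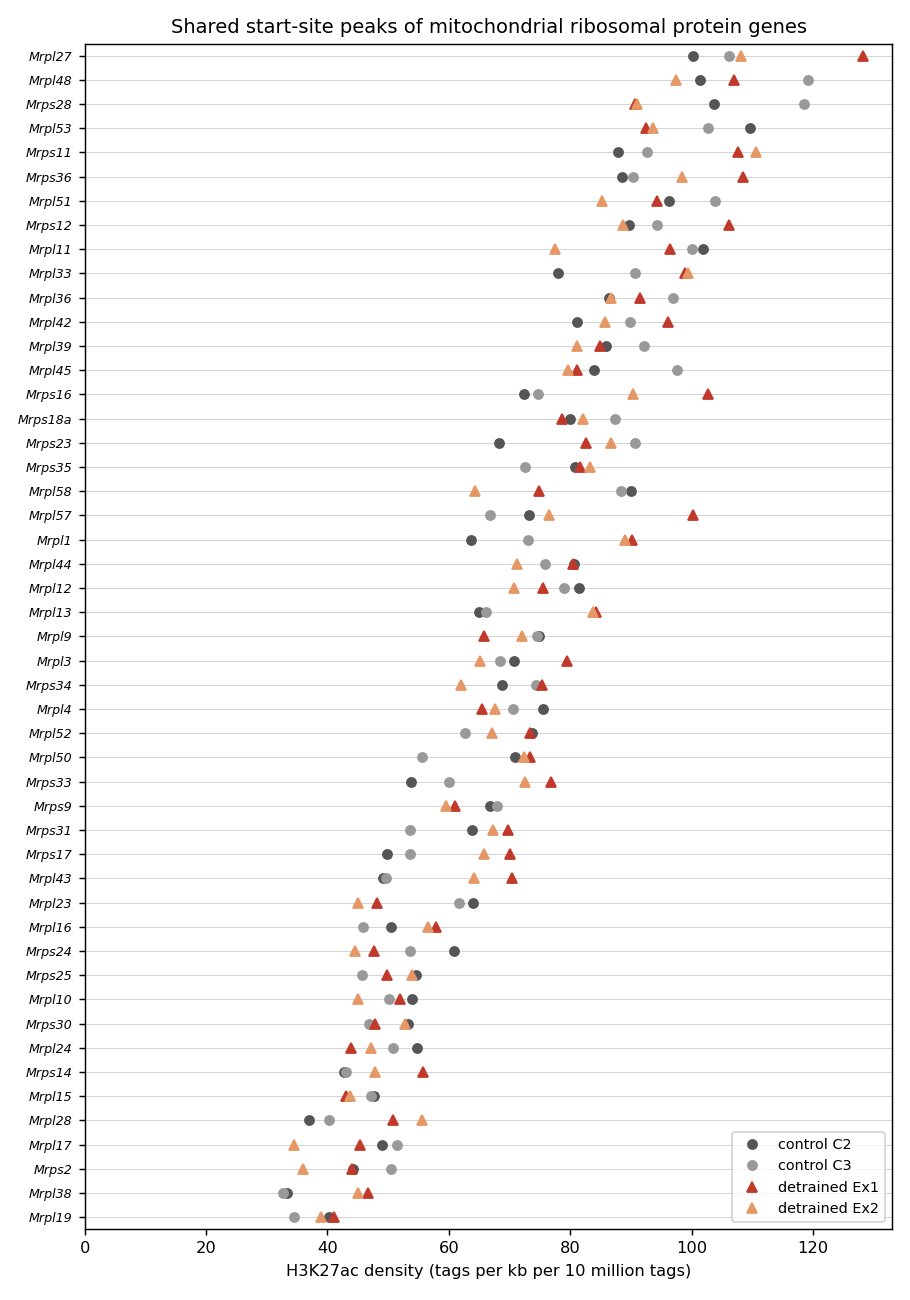
H3K27ac density (x axis, tags per kb per 10000000 tags) at the densest shared start-site peak of 49 mitochondrial ribosomal protein genes (y axis, ordered by their mean), with circles for control libraries C2 and C3 and triangles for detrained libraries Ex1 and Ex2. Densities run from 32.7 at Mrpl38 in C3 to 128 at Mrpl27 in Ex1, and at most genes the 4 libraries lie close together relative to that range.

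Between detrained and control muscle, the family as a whole differed by no more than its libraries did. The median log2 ratio of density, detrained over control, was 0.042 over the 79 shared peaks and 0.0080 over the 51 at start sites, where all 26432 shared peaks had -0.026 and all 9337 shared start-site peaks -0.029. The mean log2 density of the 79 peaks was 5.76 and 5.80 in the controls (C2, C3) and 5.82 and 5.76 in the detrained libraries (Ex1, Ex2). The groups overlapped, and the difference between groups was of the size of the spread between replicates (0.034, pooled SD of the library means). The sign of the median depended on single libraries, as it was -0.024 without C2 and -0.037 without Ex1.

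Single peaks went both ways in equal number. Both detrained libraries lay above both control libraries at 26 of the 79 peaks (32.9%) and below them at 26 (32.9%), whereas 21.3% of all shared peaks were above and 27.2% below. At start sites the counts were 18 and 18 of 51 (35.3% each), beside 22.8% and 30.3% of all shared start-site peaks. With the groups apart by 1.5-fold or more, no member peak was above and 2 were below, against 1.10% and 2.06% of all shared peaks, and no start-site member peak was in either direction, against 0.835% and 1.49% of all shared start-site peaks. The log2 ratios at start sites spanned -0.43 to 0.48, with an SD of 0.24 across members and of 0.24 across all shared start-site peaks.

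The 3 largest increases were at the start sites of Mrpl38, Mrpl28 and Mrpl43, all of the large subunit. Mrpl38 went from 33.3 and 32.7 in the controls to 46.7 and 45.1 in the detrained libraries (log2 ratio 0.48). Mrpl28 had 37.0 and 40.3 in the controls and 50.8 and 55.5 in the detrained libraries (0.46), and Mrpl43 had 49.2 and 49.6 against 70.4 and 64.1 (0.44). The groups did not overlap at any of these, but the called peak was shorter in detrained muscle at each, 949 against 1735 bp, 500 against 879 bp and 1753 against 2309 bp. In tags per peak the log2 ratios were -0.39, -0.35 and 0.047, so that the direction turned at Mrpl38 and Mrpl28.

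Among peaks named for the same gene in both lists, the 3 largest decreases were at distal peaks, the third of them level with a start-site peak. At the exonic peak of Mrpl20 the densities were 70.0 and 71.0 in control and 48.1 and 41.0 in detrained libraries (log2 ratio -0.67, and -0.15 in tags per peak). A peak downstream of Mrpl14 (chr17:45707696-45708911 in control) had 39.6 and 43.1 against 27.1 and 26.99 (-0.61, and -0.052 in tags per peak). The third was in an intron of Mrps18a (chr17:46115836-46120779 in control), with 39.6 and 37.6 against 25.8 and 31.6 (-0.43, and -0.29 without Ex1). There the peak was called shorter in detrained muscle, 4197 against 4943 bp, and the ratio in tags per peak was also negative (-0.67). At the same -0.43, to the digits given, stood the start-site peak of Mrpl23, of the large subunit, named after its values were seen. It had 64.0 and 61.6 against 48.2 and 45.0, was called longer in detrained muscle (3424 against 2268 bp) and turned to 0.16 in tags per peak.

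The density ratios moved with called length, by which density is divided. Across the 79 peaks, the log2 ratio of density and that of called length had a Pearson correlation of -0.75 and a Spearman correlation of -0.78 (-0.88 and -0.88 over the 51 start-site peaks). For all 26432 shared peaks these were -0.51 and -0.53. The points share libraries and each holds its length on both axes, so the correlation is given as a description. Of the 26 peaks that were denser in detrained muscle, 25 were called shorter there, and of the 26 that were less dense, 24 were called longer. Over all shared peaks these shares were 80.4% and 80.1%. In tags per peak both detrained libraries were above both controls at 14 of the 79 peaks and below at 23, beside 24.7% and 28.8% of all shared peaks, and the median log2 ratio was -0.019. Among the 25 member peaks whose called lengths differed by less than 10%, 5 were above and 5 below, with log2 ratios from -0.25 to 0.27, beside 14.6% above and 21.4% below of all 7724 such shared peaks.

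**Figure D3:**
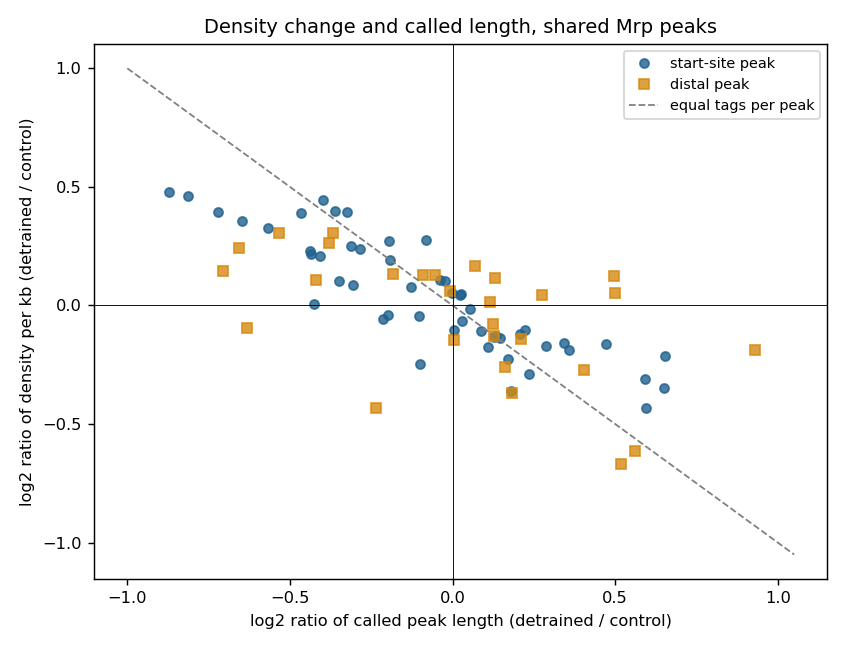
Log2 ratio of density (y axis, detrained over control) against log2 ratio of called peak length (x axis) for the 79 shared peaks of mitochondrial ribosomal protein genes, 51 at start sites (circles) and 28 distal (squares), with the dashed line where tags per peak would be equal. The circles follow a falling line (Pearson correlation -0.88), with Mrpl38 at the top left and the distal peak of Mrpl20 lowest.

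On both scales the groups were apart in the same direction at 9 of the 79 peaks, beside 16.0% of all shared peaks, and these 9 were picked out after their values were seen. Above were the start-site peak shared by Mrps11 and Mrpl46 and a distal peak named for Mrpl3. At Mrps11 the densities were 87.9 and 92.6 in control and 108 and 111 in detrained libraries, a log2 ratio of 0.27 per kb and 0.19 per peak. Below were the start-site peaks of Mrpl58 and Mrps2, the exonic peak of Mrpl20, the intronic peak of Mrps18a, an intronic peak of Mrps27 and 2 distal peaks named for Mrps23. Mrpl58, a peptidyl-tRNA hydrolase built into the large subunit, had 90.02 and 88.4 against 74.8 and 64.3 (-0.36 per kb, -0.18 per peak). Mrps2 had 44.1 and 50.5 against 44.0 and 36.0 (-0.25 and -0.35), with Ex1 just under the lower control, and the ratio per kb was -0.15 without C3, -0.39 without Ex1 and -0.10 without Ex2.

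Proteins of the small subunit were measured at 15 shared start sites. The median log2 ratio was 0.10, with the groups apart upward at 7 genes, downward at 4 and overlapping at 4, beside 22.8% and 30.3% of all shared start-site peaks. Mrps12, at the decoding centre, had 89.7, 94.3, 106 and 88.7 in C2, C3, Ex1 and Ex2 (0.077), and the groups overlapped. Mrps16 had 72.4 and 74.7 in control and 103 and 90.3 in detrained libraries (0.39), although its ratio in tags per peak was -0.077. Mrps28 had 104 and 118 against 90.6 and 90.9 (-0.29, -0.19 without C3, and -0.054 per peak), and Mrps34, particular to mitochondria, had 68.8, 74.3, 75.4 and 62.0 (-0.064), with overlap. The 9 proteins with a bacterial counterpart had a median of 0.077 and the 6 particular to mitochondria 0.11, which in tags per peak were 0.070 and -0.00035. The median of all 15 was 0.18 without C2.

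Small subunit genes whose start lay under a peak with another name gave the following. Mrps7, which binds the small subunit RNA, lay in a peak named Gga3 with 111 and 108 in control and 96.8 and 90.02 in detrained libraries (-0.23, which turned to 0.086 in tags per peak). Mrps5 lay in a peak with 89.8 and 98.2 against 120.1 and 112 (0.31, and 0.061 in tags per peak), named Zfp661 in the control and Mrps5 in the detrained list. The peaks over Mrps18b and Mrps18c, 2 of the 3 relatives of bacterial S18, differed widely in level. They also cover the starts of Ppp1r10 and Helq, so these levels cannot be assigned to either member. The 5400-bp control peak over Mrps18b had 130.3 and 155 in control, and 168 and 145 were measured in detrained libraries. The peak over Mrps18c had 36.6, 25.2, 34.6 and 34.3, so the groups overlapped per kb at both. In tags per peak the ratio at Mrps18c was 0.45, against 0.18 per kb, and both detrained libraries lay above both controls. That peak was called longer in detrained muscle (1340 against 1111 bp).

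The large subunit was measured at 33 shared start sites, with a median log2 ratio of -0.046 (-0.077 without Ex1 and -0.0027 without Ex2). It had 10 genes apart upward, 13 downward and 10 overlapping (beside 22.8% and 30.3% of all shared start-site peaks). The stalk that recruits translation factors is represented by Mrpl10, Mrpl11 and Mrpl12. Mrpl10 had 53.9, 50.2, 51.9 and 45.1 in C2, C3, Ex1 and Ex2 (-0.10, overlapping), Mrpl11 had 102 and 100.03 against 96.3 and 77.5 (-0.22, from -0.38 without Ex1 to -0.068 without Ex2) and Mrpl12 had 81.5 and 79.0 against 75.4 and 70.7 (-0.14, and -0.089 without Ex2). In tags per peak Mrpl11 and Mrpl12 overlapped, with ratios of -0.055 and 0.0085. Mrpl3 and Mrpl4, near the catalytic core and the exit tunnel, had log2 ratios of 0.047 and -0.13, with overlap at Mrpl3 only. Mrpl4 was at -0.084 without C2 and at -0.0078 in tags per peak, where its groups overlapped. Mrpl16 had 0.25 and Mrpl24 -0.21, both of which turned in tags per peak (-0.061 and 0.44).

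Among large subunit proteins particular to mitochondria, Mrpl44, with a fold like that of ribonuclease III, had 80.5, 75.8, 80.4 and 71.2 (-0.046, overlapping). In tags per peak its ratio was -0.15, with the groups apart downward. Mrpl45, near the exit tunnel where the ribosome meets the inner membrane, had 83.9 and 97.5 against 81.1 and 79.6 (-0.17, from -0.28 without C2 to -0.062 without C3, and 0.11 per peak). Mrps30 and Mrps18a are named for the small subunit, although both proteins sit in the large one. Their start-site peaks had ratios of 0.0080 and -0.057 per kb, and the groups overlapped. In tags per peak the ratios were -0.42 and -0.27, with the groups apart downward at both. Mrpl40 lay in the peak named Hira with 78.4 and 78.8 against 63.1 and 60.5 (-0.35, and -0.12 per peak), and Mrpl2 in that named Klc4 with 80.8, 93.7, 89.8 and 72.2 (-0.11, overlapping). The medians over the 19 large subunit proteins with a bacterial counterpart and the 14 particular to mitochondria were -0.057 and -0.019. The subunits were not tested against each other, and over the same peaks the small subunit median was 0.036 and the large -0.019 in tags per peak. The latter was -0.046 where the peak of each gene was chosen by its tags.

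Of the 8 genes that named a peak in 1 list only, most had a peak in the other list under a neighbour's name. The control peaks of Mrpl30, Mrpl41, Mrpl54 and Mrpl55 were paired with detrained peaks named Mitd1, Pnpla7, Apba3 and 2610507I01Rik, and the detrained peaks of Mrpl18 and Mrps5 with control peaks named Tcp1 and Zfp661. At Mrpl41, particular to mitochondria, the pair had 78.2 and 85.5 in control and 104 and 101 in detrained libraries (0.32 per kb), and 0.00066 in tags per peak. At Mrpl30 it had 58.5 and 55.0 against 62.6 and 75.1 (0.27, 0.14 without Ex2, and 0.017 in tags per peak), at Mrpl54 and Mrpl55 the ratios were -0.090 and -0.12 (-0.071 without C2 and -0.059 without Ex2 at Mrpl55), and at Mrpl18 it was -0.029. The groups overlapped at Mrpl54, which ranged from -0.15 to -0.026 without single libraries, and at Mrpl18, which was 0.088 without Ex2. Of the 8, Mrpl35 and Mrps15 had no detrained peak at their start. The control peak of Mrpl35 (chr6:71823178-71824098) had 71.0 and 70.5, and that of Mrps15 (chr4:126046722-126047598) had 65.8 and 59.7, near the middle of the family. In the other direction, the detrained peak of Mrps10 (chr17:47368554-47369614) had 40.7 and 39.4 and no control peak met it. No value was listed at these positions in the other group, so no ratio can be given.

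Taking all member peaks, 23 of 118 control peaks (19.5%) had no overlap in the detrained list, beside 27.9% of all control peaks, and 12 of 107 detrained peaks (11.2%) had none in the control list, beside 18.0% of all. At start sites these were 2 of 60 control peaks, those of Mrpl35 and Mrps15, beside 4.84% of all control start-site peaks, and 1 of 55 detrained peaks, that of Mrps10, beside 4.18% of all. The others were weak distal peaks. Densities below 40 in both libraries held for all of these. Among them were a control peak in an intron of Mrpl42 with 35.7 and 31.5, an intergenic detrained peak assigned to Mrps22 with 38.3 and 34.0 and a detrained peak in an intron of Mrpl48 with 29.5 and 39.5.

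Distal peaks, 58 in control and 52 in detrained muscle, were named for 25 and 24 genes, and often lay outside the gene that names them. In control muscle 23 were inside a transcript of another gene, 22 were intergenic and 13 were inside the named gene (16, 21 and 15 in detrained muscle). Distal peaks named for Mrpl37 lay in introns of Ssbp3, a chromatin co-regulator, at least 32934 bp from the start of Mrpl37, and those downstream of Mrpl33 in Rbks, the ribokinase. Such a name reflects distance alone. The longest member peak in control muscle was downstream in Mrpl14 (chr17:45691509-45707107, 15598 bp), with 52.1 and 65.8. In detrained muscle the same stretch was called as 2 peaks, of 5275 and 9572 bp, and the latter had 64.5 and 64.9.

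The longest detrained member peak was in an intron of Mrps18a (chr17:46122069-46132789, 10720 bp). It had 35.4 and 38.3, and the matching control peak, of 10437 bp and named Rsph9, had 54.2 and 56.4 (log2 ratio -0.59 per kb and -0.55 in tags per peak). The intronic Mrps18a peak beside it also differed downward on both scales. The start-site peak of Mrps18a lay between 78.7 and 87.4 in all 4 libraries, and the groups overlapped per kb (-0.057). In tags per peak it was at -0.27, with the groups apart downward there too. The 28 shared distal peaks with the same name had a median ratio of 0.047, and 8 were above and 8 below (28.6% each). All 17095 shared distal peaks had a median of -0.024, with 20.5% above and 25.5% below.

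The other proteins of mitochondrial translation, by lists that were chosen with earlier results of these data known, also went both ways, with small medians. Among 12 mitochondrial translation factors, 10 had a shared start-site peak, with a median log2 ratio of 0.076 (4 above, 1 below, 5 overlapping) that was -0.066 in tags per peak. All shared start-site peaks, with 22.8% above and 30.3% below, are the background for these counts. Of 17 mitochondrial aminoacyl-tRNA synthetases, 10 were measured (-0.042, 2 above and 3 below), and of 24 assembly factors 12, at 13 peaks (-0.048, 3 and 3). Of 6 further ribosomal proteins that carry other names, 2 were measured, both below (-0.19, and -0.016 in tags per peak). For 12 regulators of nuclear genes for mitochondrial proteins, 8 were measured (-0.096, 1 above and 4 below).

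In density rank, the family stood below the respiratory chain. Subunits of oxidative phosphorylation stood at percentile 81.6 in control and 84.4 in detrained muscle (72 genes in each list), and still at 68.0 and 66.4 in tags per peak, compared with 62.4 and 65.9, and 37.9 and 38.3, for mitochondrial ribosomal proteins. Cytosolic ribosomal proteins stood at 64.0 and 60.6 per kb and 49.0 and 51.6 per peak, and mitochondrial aminoacyl-tRNA synthetases, at 61.2 and 63.5 and at 39.4 and 36.8, were close to the mitochondrial ribosomal proteins on both scales. The median log2 ratio was 0.050 over 69 shared start-site peaks of oxidative phosphorylation (21 above, 16 below) and -0.058 over 56 of cytosolic ribosomal proteins (9 above, 18 below), beside 22.8% above and 30.3% below of all shared start-site peaks. These differences between lists were not tested.

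**Figure D4:**
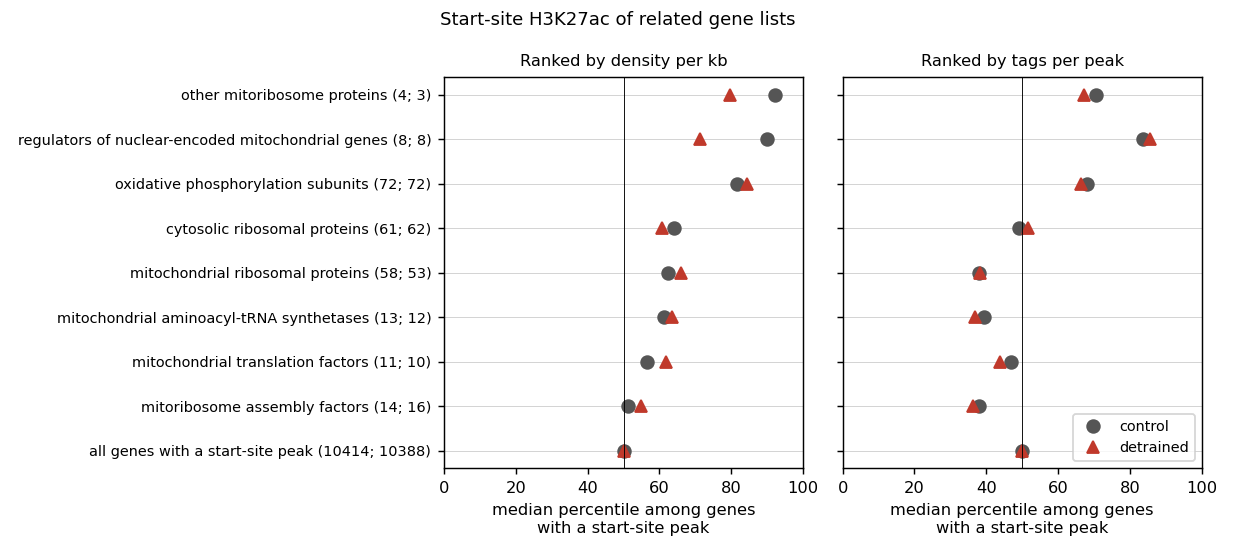
Median percentile of start-site H3K27ac (x axis) among genes with a start-site peak, ranked by density per kb (left) and by tags per peak (right), for each gene list (y axis, with the number of genes in control and detrained muscle), with circles for control and triangles for detrained muscle. Mitochondrial ribosomal proteins lie to the right of the middle per kb (62.4 and 65.9) and to the left of it per peak (37.9 and 38.3), whereas oxidative phosphorylation subunits lie to the right on both.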

How the data were processed

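H3K27ac ChIP-seq was measured in 4 quadriceps libraries, 2 per group, with 1 input per group. Per the labels, the authors' reads were mapped with Bowtie (1.2 in the submitters' processing notes, another version in the methods) to mm10, and the authors called peaks per group on pooled libraries with HOMER. The deposited signal per peak is pooled tags, scaled to 10000000 total tags. For each library, the authors deposited log2 values made with DESeq2 within HOMER, which are shrunken, so that the spread between libraries may be understated. The authors' p-value and fold ratio over input per peak were used only as filters and as enrichment. Columns were matched to groups, and control columns C2 and C3 to no numbered mouse.

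Tags of each library were estimated by sharing the pooled tags in proportion to the total and 2 to the power of the log2 value. Density was (tags + 0.5) per kb of peak (end minus start) per 10000000 tags. A start-site peak held the annotated start within its length, and all others were called distal, however near. Groups were called apart where both libraries of one lay beyond both of the other. No test between groups was made. Steps were tested on simulated data, with pandas 2.3.3, numpy 2.4.6 and Python 3.11.15. Start sites and promoters came from RefSeq (GRCm38.p6): no peak ran past a chromosome end and 217 of 225 member peaks gave a distance that met a RefSeq start within 2 bp.

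Members and gene lists were chosen with earlier results of these data known. Genes were named if they named a peak in 1 list only, had the 3 highest or lowest start-site densities or the 3 largest increases or decreases with groups apart, had the longest peak, or stood on a list by role.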

Additional observations from a re-analysis of the deposited data

How the results depend on the processing

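The median log2 ratio over shared peaks (0.042) was -0.019 in tags per peak, 0.092 when scaled to tags in listed peaks and -0.051 where pairs had to overlap over 80% of each, and without single libraries it ranged from -0.037 to 0.042. Of the 79 peaks, the 26 with the groups apart upward became 14 in tags per peak (24.7% of all shared peaks), and the 26 downward became 17 when scaled to tags in listed peaks (22.03% of all). Under the 80% overlap, which left 42 member peaks, 8 were above and 14 below (16.5% and 23.7% of all). Among peaks of nearly equal called length, an alternative chosen after seeing the data, 5 were above and 5 below, of 25 (14.6% and 21.4% of all such shared peaks). Without single libraries the counts ranged from 28 to 36 of 79 upward (28.8% to 38.7% of all shared peaks) and from 31 to 36 downward (35.9% to 45.5%), where fewer libraries make it easier to be apart.

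The median percentile of start-site density was 37.9 in control and 38.3 in detrained muscle in tags per peak, and 89.8 and 89.5 among all peaks. It ranged from 61.4 to 64.2 in control and from 66.4 to 67.7 in detrained muscle without single libraries. With the promoter annotation of the tables, 33 and 27 genes had a peak, in place of 58 and 53. With stricter peaks, at least 4-fold over input and with an adjusted p from the authors' peak calling under 0.001, 5 of 78 control peaks (11.3% of all such peaks) and 10 of 84 detrained peaks (15.4% of all) had no overlap in the other list. The small subunit median was 0.036 in tags per peak and ranged from 0.092 to 0.18 without single libraries. In tags per peak the median of translation factors was -0.066 and that of the other ribosomal proteins -0.016. The YY1 motif was found in 2 promoters before the start, in place of 8. Of the 52 peaks with the groups apart, 29 turned direction in tags per peak (48.7% of all shared peaks that were apart). Among the genes named by the rules, those that turned were Mrpl12 (0.0085), Mrpl16 (-0.061), Mrpl23 (0.16), Mrpl24 (0.44), Mrpl28 (-0.35), Mrpl38 (-0.39), Mrpl45 (0.11) and Mrps16 (-0.077), and, at peaks that carry another name in a list, Mrpl55 (0.016) and Mrps7 (0.086). Tags per peak are not free of length either, as their log2 ratio had a Pearson correlation of 0.76 with that of called length over the 79 peaks (0.77 over all shared peaks). The cause of these changes was not tested. Of the remaining alternatives for main results, 66 stayed within the limits set. No paired analysis was possible because the groups were separate animals and the labels give no pairs, and no test was made. The labels number both groups 1 and 2 while the control columns carry 2 and 3. Those columns could therefore not be matched to numbered animals. Depth limits the weak distal peaks most, the weakest having about 11.8 tags in a library.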
